A study of Rattus norvegicus with 23 samples.

Results

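The effect of the gut peptide PYY3-36 on RNA of the rat femur was measured over 19 bulk RNA-seq libraries, 9 from rats given the peptide and 10 from rats not given it. The 19 are the libraries of the series, out of 23 in all, whose titles carry the abbreviations hfd and lfd. Those with pyy in the title were set against those without, with the presence of semaglutide as a second factor. A single PYY effect was thereby estimated over rats with and without semaglutide, for the genes on the 20 autosomes, which are 29031 of the 30562 genes in the count table.

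PYY is released from the gut after a meal, and the protease encoded by Dpp4 trims it to PYY3-36, which acts mainly on Npy2r, a receptor of the neuropeptide Y family. These receptors couple to inhibitory G proteins and sit on neurons, vessels and other cells, and signalling through them has been studied in appetite and in bone turnover. A whole femur holds bone-forming osteoblasts, embedded osteocytes, resorbing osteoclasts, cartilage, vessels, stroma and blood-forming marrow, and muscle can remain attached to it.

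All rats were labelled female Wistar rats, and all 19 libraries came from the group labelled MetOP, fed a high-fat diet together with L-NAME, which blocks nitric oxide synthase. Of these libraries, 5 were from saline, 4 from PYY3-36 with saline (called PYY below), 5 from semaglutide, a GLP-1 receptor agonist, and 5 from semaglutide with PYY3-36 (called the combination). The treatment labels of the 4 PYY libraries end in PYY3-36, PYY3-37, PYY3-38 and PYY3-39, so their grouping rests on the shared title, and the design text names PYY3-36 alone. Doses, the length of treatment, the age of the rats and the meaning of lfd were not stated. Libraries are named by group and by the name of their column (PYY A215, A216, A219 and A220, and combination A248, A251, A253, A318 and A320).

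Library totals lay between 19.25 and 40.65 M counts, with levels below in counts per M (CPM), and mitochondrially encoded genes took 46.1 to 83.9% of them. The means with PYY minus those without, taken within semaglutide groups, were -0.104 M for the total, -2.97 percentage points for the mitochondrial share and 553 for genes detected (exact stratified permutation p = 0.968, 0.524 and 0.198, two-sided, each adjusted p 0.593 or more). RNA of Y-linked genes was present in libraries labelled female. Combination A248 held 724, 489 and 172 counts of Eif2s3y, Ddx3 and Uty, and combination A318 held 356, 140 and 55. Combination A251 (58 and 29 counts of the first 2 genes) and A320 (24 counts of the first) held less, and the other 15 libraries held 0. All 4 of these libraries had PYY with semaglutide, so results for all genes together and for some genes and lists are also given without them. Other results include them. Without all 4, combination A253 (82.6% mitochondrial) alone was left beside 5 semaglutide libraries. That fit rests mostly on PYY against saline, and only the size or sign of effects is given for it. PYY A216 and combination A320 also stood apart, with skeletal muscle genes at 2.45% and 1.27% of the nuclear counts against 9.43 to 25.8% in the other 17. The label femur was matched by bone genes, since the collagen gene Col1a1 was at 58.3 CPM or more and the osteocalcin gene Bglap at 4.83 CPM or more in every library.

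No autosomal gene passed for PYY in edgeR, while many vessel wall, endothelial and connective tissue genes were on the higher side and most muscle, oxidative phosphorylation and heat shock genes on the lower. A gene counts as called only with an adjusted p under 0.05, and values after a gene name are pooled log2 fold changes with PYY ± SE unless said otherwise. The quasi-likelihood test of edgeR called 0 of 14507 autosomal genes (0%, smallest adjusted p = 0.635). At an unadjusted p under 0.05 it had 840 genes (5.79%) against the 725 that chance alone gives, of which 631 were higher (4.35%) and 209 lower (1.44%), and 53.7% of all autosomal genes had a log2 fold change above 0. With other tools, limma voom called 0, voom with sample quality weights called 0, and DESeq2 called 3, namely Ddr2, Emp2 and Col18a1. The excess on the higher side was not kept by every method, since voom had 465 higher and 526 lower, voom with quality weights 884 and 864, and a fit with the mitochondrial share as covariate 800 and 826. Without combination A248 and A318 the split was 582 higher and 98 lower. Without PYY A216 and combination A320, the libraries poor in muscle RNA, it was 398 and 161. Without all 4 libraries with Y-linked RNA, 50.5% of all autosomal genes had a log2 fold change above 0. Whether each library is a separate rat is not stated, and the p-values reflect only the spread among these samples.

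The pooled effect has 2 parts that share no library, PYY against saline and the combination against semaglutide. Neither alone called a gene in edgeR (smallest adjusted p = 0.933 and 0.506), and at an unadjusted p under 0.05 the first had 488 higher and 177 lower (3.36% and 1.22%, together 4.58%) and the second 542 and 208 (3.74% and 1.43%, together 5.17%). Log2 fold changes above 0 made up 49.5% of genes in the first part and 53.7% in the second. DESeq2 called 3 genes in the first, where Fbn1, the fibrillin of microfibrils, had a log2 fold change of 2.93 (adjusted p = 0.0073), the matricellular gene Ccn3 3.46 and Emp2 1.62 (both adjusted p = 0.0185). It called 10 in the second, of which Ddr2 (1.43, adjusted p = 0.0074) was the only one with a mean of at least 5 CPM. Over the 14507 genes the log2 fold changes of the 2 parts were almost unrelated (Pearson r = 0.02, Spearman rho = 0.05), and 53% of genes had the same sign in both. These are descriptions across genes, which are not independent replicates, and all libraries share 1 batch label and 1 normalization. Among the 4970 genes with a mean of at least 10 CPM r was 0.13 and 57.7% had the same sign. No gene had all 9 PYY libraries above, or all below, the other 10 (0% each), and none was free of overlap in the same direction in both parts (0%). For freedom from overlap in 1 part alone no share over all genes is given. Where it is told of single genes below, mostly picked for a small p, it describes those genes only.

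**Figure D1:**
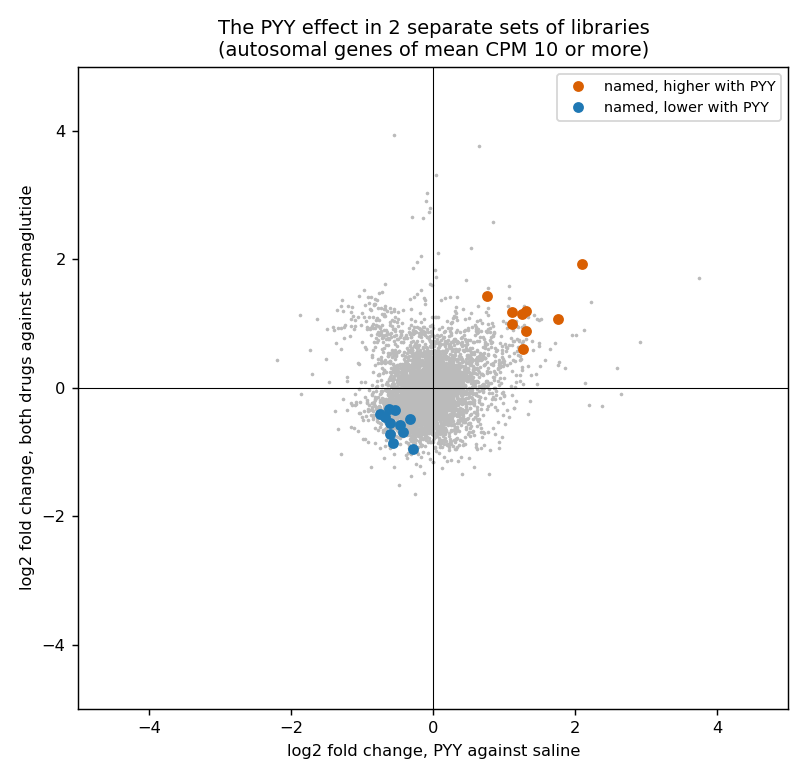
Each point is 1 of the 4970 autosomal genes with a mean of at least 10 CPM, by its log2 fold change in PYY against saline (horizontal, 9 libraries) and in the combination against semaglutide (vertical, 10 other libraries). Orange and blue mark those of the 24 genes with the smallest pooled p and the same sign in both that reach this level (20 genes), and the grey cloud shows little slope, with r = 0.13.

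Ddr2, a receptor tyrosine kinase that binds fibrillar collagen (chromosome 13, 82195463 to 82317363, build mRatBN7.2), had the smallest p of all genes. Its level was 49.6, 30.01, 27.3 and 26.6 CPM in the PYY libraries against 19.2, 18.02, 30.8, 16.01 and 15.1 in saline. With semaglutide it was 17.4, 13.6, 26.6, 9.01 and 16.3 CPM in the combination against 5.35, 7.88, 5.29, 7.78 and 4.59 without PYY. Semaglutide libraries were the lowest of all, and every combination library lay above every one of them, whereas in the part without semaglutide 1 saline library (30.8) lay within the PYY range. The pooled log2 fold change was 1.11 ± 0.21 (SE), with a 95% interval of 0.66 to 1.55 and an edgeR adjusted p of 0.635, while DESeq2 gave 1.12 with an adjusted p of 0.0151. It was 1.14 without combination A248 and A318 and 1.18 without the 4 libraries with Y-linked RNA.

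Emp2, a membrane protein of the PMP22 family (chromosome 10, 5360073 to 5394733), was at 17.04, 11.5, 13.3 and 7.63 CPM with PYY against 6.94, 2.99, 2.34, 4.02 and 4.11 in saline. It was at 4.81, 4.31, 8.40, 6.39 and 9.28 CPM in the combination against 4.34, 4.19, 3.68, 2.84 and 5.51 with semaglutide. All 4 PYY libraries lay above all 5 saline libraries, while 2 of 5 combination libraries lay within the range of semaglutide. The log2 fold change was 1.12 ± 0.25 (edgeR adjusted p = 0.657), and DESeq2 gave 1.14 (adjusted p = 0.0379).

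Col18a1, a basement membrane collagen from which the angiogenesis inhibitor endostatin is cleaved (chromosome 20, 11474104 to 11582593), had the largest pooled value of the 24 genes with the smallest p. PYY libraries had 52.99, 62.6, 50.9 and 15.01 CPM and saline libraries 17.4, 8.93, 16.3, 6.96 and 3.73. The combination had 5.99, 3.04, 8.004, 54.3 and 62.5 CPM and semaglutide 4.26, 6.42, 7.17, 12.02 and 5.16. Only PYY A220 lay within the saline range. In the combination the 5 libraries were split, with A318 and A320 above all semaglutide libraries and A248, A251 and A253 within or below the semaglutide range. The log2 fold change was 2.01 ± 0.48 (edgeR adjusted p = 0.657, DESeq2 2.02 with adjusted p = 0.0481), and it was 1.49 with the muscle level of each library as a covariate.

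The same split of the combination recurred in other vessel genes, with A318 and A320 high. The remaining genes of smallest p on the higher side were Cyyr1 (0.92 ± 0.22), the cell cortex protein Phldb2 (1.20 ± 0.30), elastin Eln (1.39 ± 0.35), the Notch target Hey1 (1.20 ± 0.30), Igfbp7, an insulin-like growth factor binding protein of vessels (1.08 ± 0.28), Tbrg1 (0.84 ± 0.22), the adaptor She (1.05 ± 0.27), the complement C1 inhibitor Serping1 (1.25 ± 0.33) and the matrix protein fibulin-2, Fbln2 (1.15 ± 0.30). Igfbp7 shows the levels behind these values, with 129, 86.6, 149 and 46.7 CPM in PYY against 35.7 to 54.1 in saline, and 57.1, 21.6, 23.4, 82.8 and 97.7 in the combination against 17.3 to 38.3 with semaglutide. PYY A215, A216 and A219 and combination A248, A318 and A320 lay above all libraries without PYY, A248 by little. These 9 genes and the 3 before them kept their sign in all 35 other fits, and the edgeR adjusted p was 0.657 for each of the 12 but Ddr2. The 12 were picked for a small pooled p and the other fits reuse the same libraries, so a kept sign is no independent check.

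**Figure D2:**
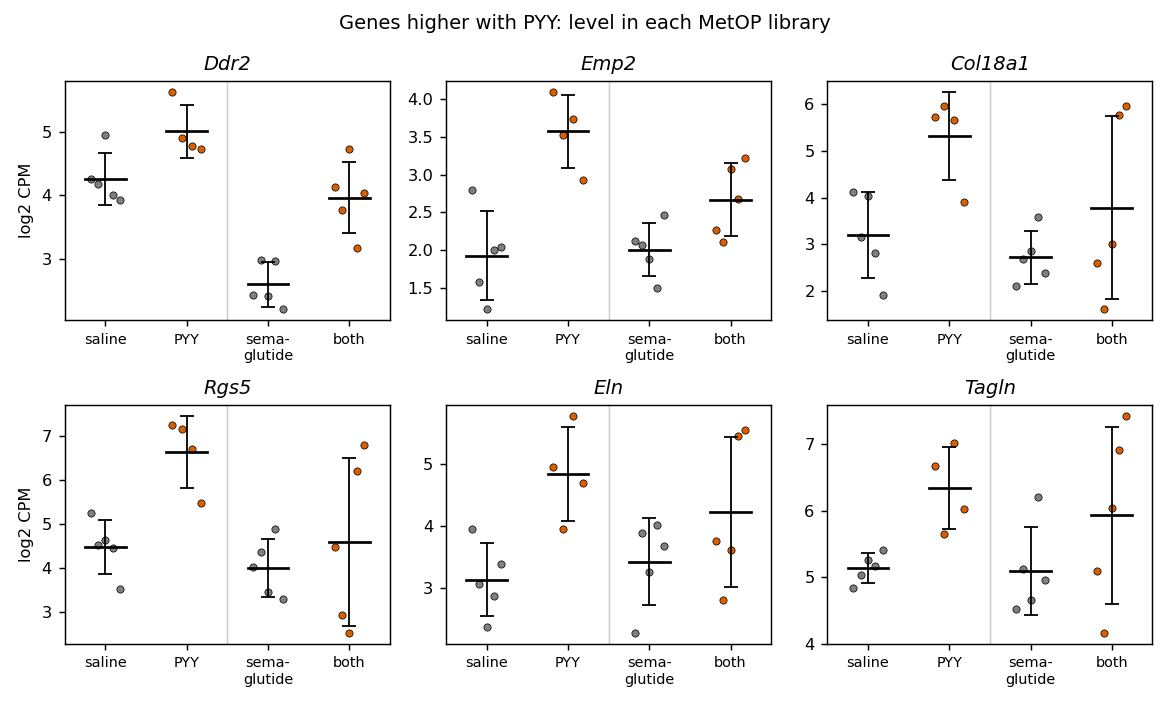
Level of 6 genes in log2 CPM (vertical) in each of the 19 libraries, by group, with the mean (thick line) and SD (bars) of each group and PYY libraries in orange. Rgs5 and Tagln of the vessel wall have all 4 PYY libraries above all 5 saline libraries, while the 5 combination libraries spread widely, with A318 and A320 highest.

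Vessel wall genes were mostly higher with PYY. The lists used here and below were chosen with earlier results of these data known. An excess of a list over all autosomal genes therefore describes the list and is no test. The lists are not separate either, since 27 symbols stand in more than 1 of them. Of 12 tested genes of smooth muscle and pericytes, the contractile cells that wrap vessels, 10 were higher and 7 had an unadjusted p under 0.05, all higher (background 4.35%), with a median log2 fold change of 0.81 against 0.04 over all autosomal genes. None passed in edgeR. In PYY against saline 11 of 12 were higher, 6 of them at an unadjusted p under 0.05 (median 1.13). In the combination against semaglutide 7 of 12 were higher, with 2 at that level (median 0.50). As a mean log2 level per library, the list differed by 0.39 with PYY, with a residual SD of 0.46. Rgs5, which curbs G protein signalling and marks pericytes (chromosome 13, 81836304 to 81885518), was at 152, 144, 105 and 44.6 CPM in PYY against 38.0, 23.2, 25.1, 22.04 and 11.6 in saline. In the combination it was at 22.4, 7.62, 5.77, 73.9 and 112 CPM against 16.3, 20.8, 11.0, 29.9 and 9.79 with semaglutide. PYY and saline libraries did not overlap, and in the combination A318 and A320 were above, A248 within and A251 and A253 below the range of semaglutide (pooled log2 fold change 1.76 ± 0.46, edgeR adjusted p = 0.657). Tagln, an actin-binding protein of contractile cells, was at 102, 50, 129.6 and 65.0 CPM in PYY against 28.6 to 42.5 in saline and 17.9 to 172 in the combination against 22.9 to 73.4 with semaglutide (1.20 ± 0.33). Smooth muscle actin Acta2 (1.28), the myosin Myh11 (0.96), calponin Cnn1 (1.06) and the adhesion gene Mcam (0.67) were also higher, whereas the channel genes Kcnj8 (0.13) and Abcc9 (0.05) of pericytes differed little. Des (-0.48) and Synpo2 (-0.44), which skeletal muscle also expresses, were lower.

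Endothelial genes, which line the vessels, were higher in 20 of 21, with 9 at an unadjusted p under 0.05 and a median of 0.50. Beside this list and those below, 53.7% of all autosomal genes were above 0 in the pooled fit. At an unadjusted p under 0.05, 4.35% of them were higher and 1.44% lower. They included the transcription factors Sox17 (0.97 ± 0.27) and Erg (0.65), the phosphatase Ptprb (0.76 ± 0.23), the angiopoietin receptor Tek (0.67) with its relative Tie1 (0.82), the junction protein Pecam1 (0.86) and Mmrn2 (0.87). Ptprb was at 106, 89.8, 124 and 44.8 CPM in PYY against 28.9 to 48.8 in saline, and at 47.5, 25.9, 35.4, 76.6 and 77.4 in the combination against 31.3 to 45.2 with semaglutide. The VEGF receptors Kdr (-0.01) and Flt1 (0.23) and the sinusoid gene Stab2 (0.06) had small differences, and von Willebrand factor Vwf had 0.42 ± 0.27. In PYY against saline 19 of 21 endothelial genes were higher, 14 at an unadjusted p under 0.05. In the combination against semaglutide 14 of 21 were higher, with 2 at that level. The median was 0.77 in PYY against saline and 0.20 in the combination against semaglutide, a difference that was not tested for the list.

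Muscle RNA was lowest in PYY A216 and combination A320, and otherwise overlapped between libraries with and without PYY. Its pooled difference as a mean log2 level was -1.05, with a residual SD of 1.30. The mean log2 CPM of the 28 skeletal muscle genes was 9.21, 6.50, 9.47 and 9.10 in the PYY libraries and 9.06 to 10.4 in saline, and 6.11 to 11.2 in the combination against 8.79 to 11.1 with semaglutide. With that level as a covariate, 3 of 12 vessel wall genes and 5 of 21 endothelial genes had an unadjusted p under 0.05, and the medians were 0.58 and 0.37. Over all autosomal genes that fit had 310 of 14507 higher at that level, against 631 in the reported fit. The list numbers thus fell much as those over all genes did. Without PYY A216 and combination A320 the list numbers were 5 and 7, with medians of 0.65 and 0.44, beside 398 of 14777 higher over all genes. Without combination A248 and A318 they were 6 and 8, beside 582 of 14892 higher over all genes. These numbers over all genes hold for the same fits below. Without the 4 libraries with Y-linked RNA the endothelial median was 0.60. In bulk RNA fewer cells of a type and less RNA per cell cannot be told apart.

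**Figure D3:**
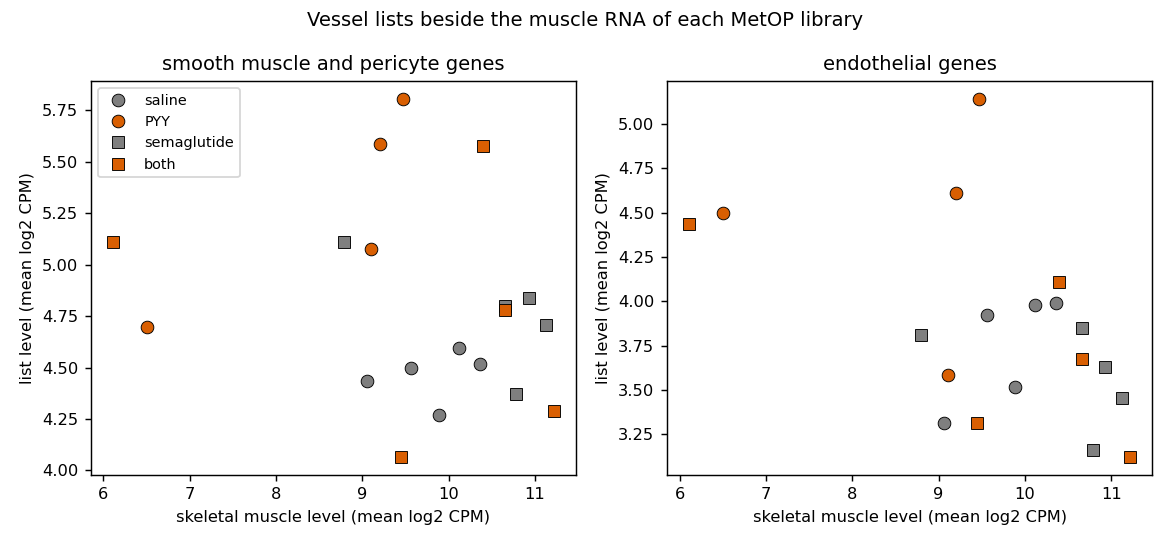
Mean log2 CPM of the 12 vessel wall genes (left) and the 21 endothelial genes (right) against that of the 28 skeletal muscle genes, 1 point per library, with PYY libraries in orange and semaglutide libraries as squares. PYY A216 and combination A320 stand alone at muscle levels of 6.50 and 6.11, and the other PYY libraries overlap the range of the libraries without PYY in muscle level.

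Genes of fibroblasts and their matrix were higher in 20 of 21, with 8 at an unadjusted p under 0.05 and a median log2 fold change of 1.08, in similar measure without (1.11) and with semaglutide (0.92). Elastin, the core of elastic fibres (chromosome 12, 21968544 to 22011928), was at 30.9, 15.4, 54.5 and 25.6 CPM in PYY against 15.5, 8.42, 5.22, 7.30 and 10.5 in saline. It was at 13.5, 7.004, 12.3, 43.5 and 46.2 CPM in the combination against 4.87, 14.8, 9.59, 16.2 and 12.8 with semaglutide, where A318 and A320 again lay above all others. In the part without semaglutide PYY A216 (15.4) was just below the highest saline library (15.5), and the other PYY libraries lay above. The microfibril gene Fbn1 (1.77), the fibulins Fbln1 (1.40) and Fbln2 (1.15 ± 0.30), collagen III Col3a1 (1.12), the collagen VI chains Col6a1 (1.10) and Col6a2 (1.17) and the adventitial gene Pi16 (1.24) had an unadjusted p under 0.05. Mfap4 (-0.11) was the only member below 0. The 8 became 5 without the 3 libraries over 80% mitochondrial RNA (A229, A253 and A265) and 14 without PYY A216 and combination A320, and leaving out 1 library at a time gave 6 to 14. The number was 7 without combination A248 and A318. Without the 4 libraries with Y-linked RNA the median log2 fold change of the list was 1.25. Stromal genes of the marrow were higher in 14 of 16 (median 0.51), led by the receptor Pdgfrb (0.93 ± 0.30), while the stem cell niche factor Angpt1, a ligand of Tek, was lower (-0.57 ± 0.18).

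Notch signalling passes between neighbouring cells and, in vessels, helps to set arterial and mural cell identity. When a ligand binds, the receptor's inner part is cut off and joins the DNA-binding protein Rbpj at its target genes. All 15 tested Notch genes were higher with PYY, 5 of them at an unadjusted p under 0.05, with a median of 0.38. The promoters of a target and of a receptor are shown because both hold the core letters that Rbpj recognises (TGGGAA or its reverse complement, in capitals). Each is the 250 bases before the start of the gene, 5′ to 3′ on the strand of the gene, from RefSeq (build GRCr8, which is not the build of the counts), at chr11:84213046-84213295 for Hes1 and chr20:4189073-4189322 for Notch4, both on the minus strand.
Hes1: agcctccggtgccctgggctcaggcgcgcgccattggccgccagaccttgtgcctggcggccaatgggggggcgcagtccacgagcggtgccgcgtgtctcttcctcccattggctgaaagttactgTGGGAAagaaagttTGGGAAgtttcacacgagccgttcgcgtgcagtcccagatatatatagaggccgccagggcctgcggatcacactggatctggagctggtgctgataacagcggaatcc
Notch4: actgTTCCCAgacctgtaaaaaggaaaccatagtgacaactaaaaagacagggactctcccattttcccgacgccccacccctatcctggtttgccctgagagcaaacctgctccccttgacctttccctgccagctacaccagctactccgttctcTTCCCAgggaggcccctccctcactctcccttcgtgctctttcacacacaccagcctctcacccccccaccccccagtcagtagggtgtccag
Hes1 holds 2 matches in the same orientation, 123 and 109 bases before the start, and Notch4 holds 2 in reverse, 246 and 93 bases before it. Over both strands and the same 250 bases, 22.1% of the 33469 promoters in the table hold the letters. So do 7 of the 15 promoters of Notch genes matched by symbol (not Hey1 and Dll4). Counted by gene, these were 6358 of 27457 genes and 6 of 13 Notch genes. A match describes letters only.

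Among the Notch receptors, Notch3 of vessel wall cells (chromosome 7, 11133706 to 11184025) was at 37.4, 28.9, 23.7 and 10.1 CPM in PYY against 10.7, 8.04, 10.7, 5.51 and 14.8 in saline. In the combination it was at 8.20, 2.79, 6.73, 22.2 and 36.9 CPM against 4.83, 8.02, 8.22, 13.4 and 6.69 with semaglutide, so that A318 and A320 were high and the other 3 were within or below the semaglutide range. Its pooled log2 fold change was 1.10 ± 0.37, and Notch4 of endothelium had 0.69 (unadjusted p = 0.0253). Of the ligands, Jag1 had 0.77, Jag2 0.51, Dll4 0.46 and Dll1 0.16. Of the targets, Hey1 (chromosome 2, 93095498 to 93100312) was at 8.82, 18.8, 9.23 and 4.70 CPM in PYY against 9.08, 4.59, 4.74, 4.09 and 10.02 in saline. It was at 5.85, 3.76, 7.88, 8.80 and 14.8 CPM in the combination against 2.05, 3.05, 2.11, 3.08 and 2.63 with semaglutide, and these groups of 5 did not overlap, whereas PYY and saline did. Hes1 had 0.38 (unadjusted p = 0.246), Hey2 0.82, Heyl 0.17 and Nrarp 0.05. With the muscle level as a covariate 11 of 15 were higher and 1 had an unadjusted p under 0.05, and without PYY A216 and combination A320 it was 13 and 1. Without combination A248 and A318 it was 15 and 4. Without the 4 libraries with Y-linked RNA 12 of 15 were higher, and the median of the list was 0.20.

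Genes of nitric oxide signalling and vascular tone, the pathway that L-NAME inhibits in every library here, were higher in 16 of 23, with 7 at an unadjusted p under 0.05 and a median of 0.50. Gucy1a1, a subunit of the nitric oxide receptor (chromosome 2, 167418640 to 167481671), was at 31.4, 27.3, 31.8 and 15.9 CPM in PYY against 9.69 to 22.6 in saline and at 9.53, 6.35, 14.4, 26.3 and 41.1 in the combination against 5.15 to 13.0 with semaglutide (0.92 ± 0.28). Its groups overlapped in both parts. The gene of the vasoconstrictor endothelin, Edn1, had 1.39 ± 0.47 at 0.242 to 6.16 CPM with PYY and 0.523 to 2.92 without. Calcrl, the receptor subunit for adrenomedullin and CGRP, had 1.28 ± 0.48, with a mean of 9.13 ± 4.55 CPM in PYY (SD, n = 4) and 2.47 ± 1.15 in saline (n = 5). These means cover only the part without semaglutide. In the combination against semaglutide its unadjusted p was not under 0.05. The 7 became 6 without combination A248 and A318 and 4 once muscle level was a covariate.

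Among growth factor pathways, the insulin-like growth factor axis had 12 of 17 genes higher and 5 at an unadjusted p under 0.05 (median 0.41), among them the binding proteins Igfbp7 and Igfbp5 (0.73 ± 0.22). Genes of TGF-beta and BMP signalling were higher in 24 of 29, with 3 at that level and a median of 0.41. In PYY against saline 26 of 29 were higher (median 0.55), and in the combination against semaglutide 14 of 29 (median -0.01). The type I receptor Acvrl1 of endothelium (0.72 ± 0.27) and the type II receptor Tgfbr2 (0.75 ± 0.29) led them. Wnt genes were higher in 20 of 28 with 3 at that level (median 0.34), with the receptor Fzd8 (1.16 ± 0.34) and the inhibitor Nkd2 (0.87 ± 0.37) first. Fzd8 was at 1.79 to 6.01 CPM with PYY and 0.685 to 3.02 without. In the Hippo pathway the kinase Lats2 was at 28.7, 20.5, 21.2 and 14.7 CPM in PYY against 14.2, 12.5, 9, 8.64 and 12.2 in saline, and at 16.6 to 25.6 in the combination against 13.3 to 22.1 with semaglutide. The PYY libraries all lay above saline, the combination overlapped semaglutide, and the pooled log2 fold change was 0.60 ± 0.17, while the list of 21 had a median of 0.15.

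Genes induced by low oxygen were split, with 10 of 18 higher, 5 at an unadjusted p under 0.05 and a median of 0.21, below 0 in the stricter filter on low counts (-0.0075). The stress gene Ndrg1 (1.02 ± 0.28) and the oxygen-sensing transcription factor Hif1a (0.67 ± 0.21) led the higher side, and the glucose transporter Slc2a1 had 0.84 ± 0.40. Immediate early genes had 15 of 22 higher and 2 at that level, Klf6 (0.54 ± 0.19) and Egr1 (0.45 ± 0.20). In the inflammation list 15 of 21 were higher (median 0.34), and Nfkbia, the inhibitor of NF-kappaB, had 0.34 ± 0.16. Genes of nerve and glia were higher in 11 of 11 (median 0.80, and 0.08 in voom), led by the myelin gene Pmp22 (0.80 ± 0.34), which was at 76.4 CPM in PYY A215 and at 29.6 or less in the other 18 libraries.

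The receptors that PYY3-36 could act on were scarce. For Npy2r, PYY A216 held 7 counts and the other 18 libraries 0, Npy4r had 15 counts in saline A229 and 0 elsewhere, and Npy5r and Pyy itself had 0 in all 19. A count of 0 allows at most 0.0738 to 0.156 CPM, depending on the library. Npy1r, which binds neuropeptide Y and intact PYY (chromosome 16, 23037789 to 23046759), was detected in all 19, at 18.1, 1.40, 17.5 and 4.64 CPM in PYY and 3.77, 4.93, 7.21, 1.45 and 4.60 in saline. It was at 3.29, 1.48, 2.23, 10.4 and 4.17 CPM in the combination and 2.09, 5.51, 3.25, 5.58 and 4.09 with semaglutide. PYY A215 and A219 and combination A318 were above 10 and all others at or below 7.21, and the pooled difference of 0.63 ± 0.44 had a 95% interval of -0.29 to 1.56. Dpp4 had 0.40 ± 0.63 at 0 to 5.21 CPM over the 19 libraries, and Npy, the neuropeptide of sympathetic nerves, -0.33 ± 0.57. Both values reversed in other fits. The receptor of semaglutide, Glp1r, had 0 counts in all 19.

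The 95% interval of the pooled value included 0 for each of the 11 genes of the bone panel. Of 29 osteoblast genes 28 were higher (median 0.72), with 22 higher in PYY against saline (median 0.25) and 27 in the combination against semaglutide (median 1.02). An unadjusted p under 0.05 was reached by 2 of the 29, beside 5.79% of all autosomal genes, namely osteoglycin Ogn (0.82 ± 0.29) and the collagen chaperone Fkbp10 (1.03 ± 0.49). Col1a1, the main collagen chain of bone (chromosome 10, 79883622 to 79900624), was at 1781, 3043, 627 and 63.8 CPM in PYY against 3015, 913, 922, 663 and 142 in saline. It was at 446, 58.3, 632, 191 and 243.3 CPM in the combination against 139, 96.1, 115, 301 and 72.2 with semaglutide. PYY libraries alone spanned 63.8 to 3043 CPM, the groups overlapped, and the log2 fold change of 0.73 ± 0.59 had a 95% interval of -0.49 to 1.95. Bglap, the osteocalcin gene, had 0.79 ± 0.50, the mineralizing phosphatase Alpl 0.53 ± 0.51, and the osteoblast transcription factors Runx2 0.54 ± 0.54 and Sp7 0.46 ± 0.57. With the muscle level as a covariate Alpl (-0.08), Runx2 (-0.14) and Sp7 (-0.36) were below 0, while 21 of the 29 genes were above. As a mean log2 level per library, the osteoblast list differed by 0.43 with PYY (residual SD 1.15) and the osteoclast list by 0.04. On the same measure the vessel wall list differed by 0.39 (residual SD 0.46) and the endothelial list by 0.415 (0.47). The fibroblast list differed by 0.60 (0.72). The osteoblast difference was thus similar in size to those of the vessel lists, with a wider spread.

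Of the osteocyte genes, the sclerostin gene Sost, which restrains bone formation, had 0.17 ± 0.73, and Dmp1, a mineralization protein, 0.44 ± 0.50. Dmp1 was -0.77 ± 0.58 in PYY against saline and 1.47 ± 0.55 in the combination against semaglutide (unadjusted p of the difference 0.0119). Osteoclast genes had no steady direction. Of 20, 15 were higher in the pooled fit (median 0.19, 0 at an unadjusted p under 0.05), 10 in PYY against saline (median -0.02) and 16 in the combination against semaglutide (0.37). The pooled number was 7 once muscle level was a covariate (median -0.17), 7 without PYY A216 and combination A320 (-0.16) and 8 in voom (-0.06). The acid phosphatase Acp5 had 0.67 ± 0.63, the collagen protease Ctsk 0.82 ± 0.58 and creatine kinase Ckb 0.68 ± 0.42. Of the signals that steer osteoclasts, the ligand Tnfsf11 had 0.38 ± 1.07 and its decoy receptor Tnfrsf11b 1.64 ± 0.83 (95% interval -0.08 to 3.37). Tnfrsf11b was at 9.59, 29.5, 2.31 and 0.183 CPM in PYY and 3.44, 0.345, 18.9, 1.33 and 0.744 in the combination, with PYY A216 and combination A253 the highest and PYY A220 the lowest. Cartilage genes were higher in 18 of 18 (median 1.43), with 0 at an unadjusted p under 0.05, a median of -0.10 without and 2.77 with semaglutide, and -0.73 in voom. As a mean log2 level per library, cartilage genes differed by only 0.10, and PYY A216 (6.55) and saline A224 (6.31) were the highest of the 19.

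**Figure D4:**
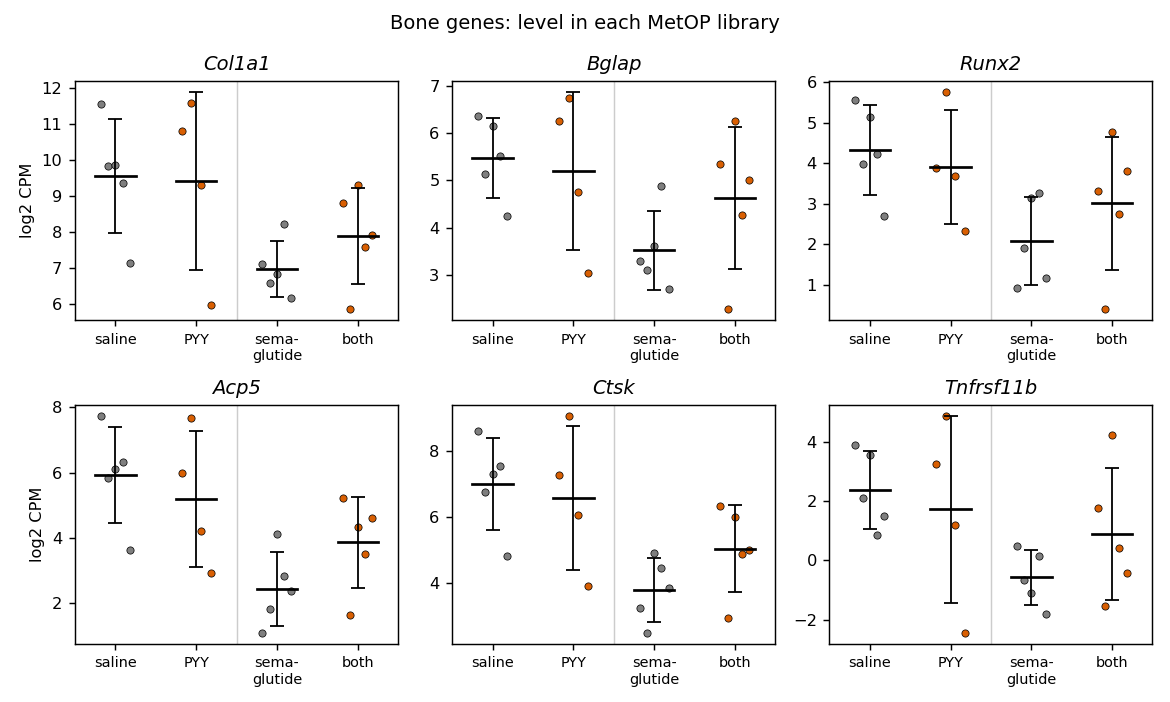
Level of 6 bone genes in log2 CPM (vertical) in each of the 19 libraries, by group, with the mean (thick line) and SD (bars) and PYY libraries in orange. PYY and saline libraries overlap in each gene, with the mean log2 level of PYY below that of saline, and semaglutide has the lowest group mean in all 6.

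Blood-forming cells and dividing cells had opposite signs in the 2 parts, and their pooled medians lay between -0.15 and 0.48. Of 37 cell cycle genes, 2 were higher in PYY against saline (median -0.68) and 37 in the combination against semaglutide (median 1.27), and the pooled median was 0.32 with 36 of 37 higher. That pooled direction was not stable, with 6 of 37 higher once muscle level was a covariate (median -0.33), 11 in voom with quality weights (-0.16), 19 in voom (0.01) and 21 without PYY A216 and combination A320 (0.06). Of these 37, 12 had an unadjusted p under 0.05 for the difference between the parts, against 4.18% of all autosomal genes, and none passed. The replication licensing gene Cdt1 had a pooled 1.00 ± 0.48. Erythroid genes had medians of -0.80 and 1.20 (pooled 0.19, of 21), megakaryocyte genes -1.32 and 0.98 (-0.05, of 15) and neutrophil genes -1.30 and 0.84 (-0.15, of 19). Mast cell, basophil and eosinophil genes had -1.05 and 0.80 (-0.0011, of 12), and macrophage genes -0.19 and 1.05 (0.48, of 16). The pooled median of each of these 5 lists had the other sign in at least 1 other fit, such as -0.31 for erythroid genes once muscle level was a covariate and -0.06 for macrophage genes in voom with quality weights. The neutrophil chemokine receptor Cxcr2 had -2.33 ± 1.22 and 0.51 ± 1.06. Combination A320, poor in muscle RNA, held 40.1 CPM of it against at most 21.9 in any library without PYY. The red cell membrane spectrin Sptb, which muscle also expresses, was lower in both parts (pooled -0.47 ± 0.22), and the macrophage receptor Axl was higher (0.65 ± 0.27). Ribosomal protein genes were lower in 37 of 37 in PYY against saline (median -0.24) and higher in 33 of 37 in the combination against semaglutide (0.14).

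**Figure D5:**
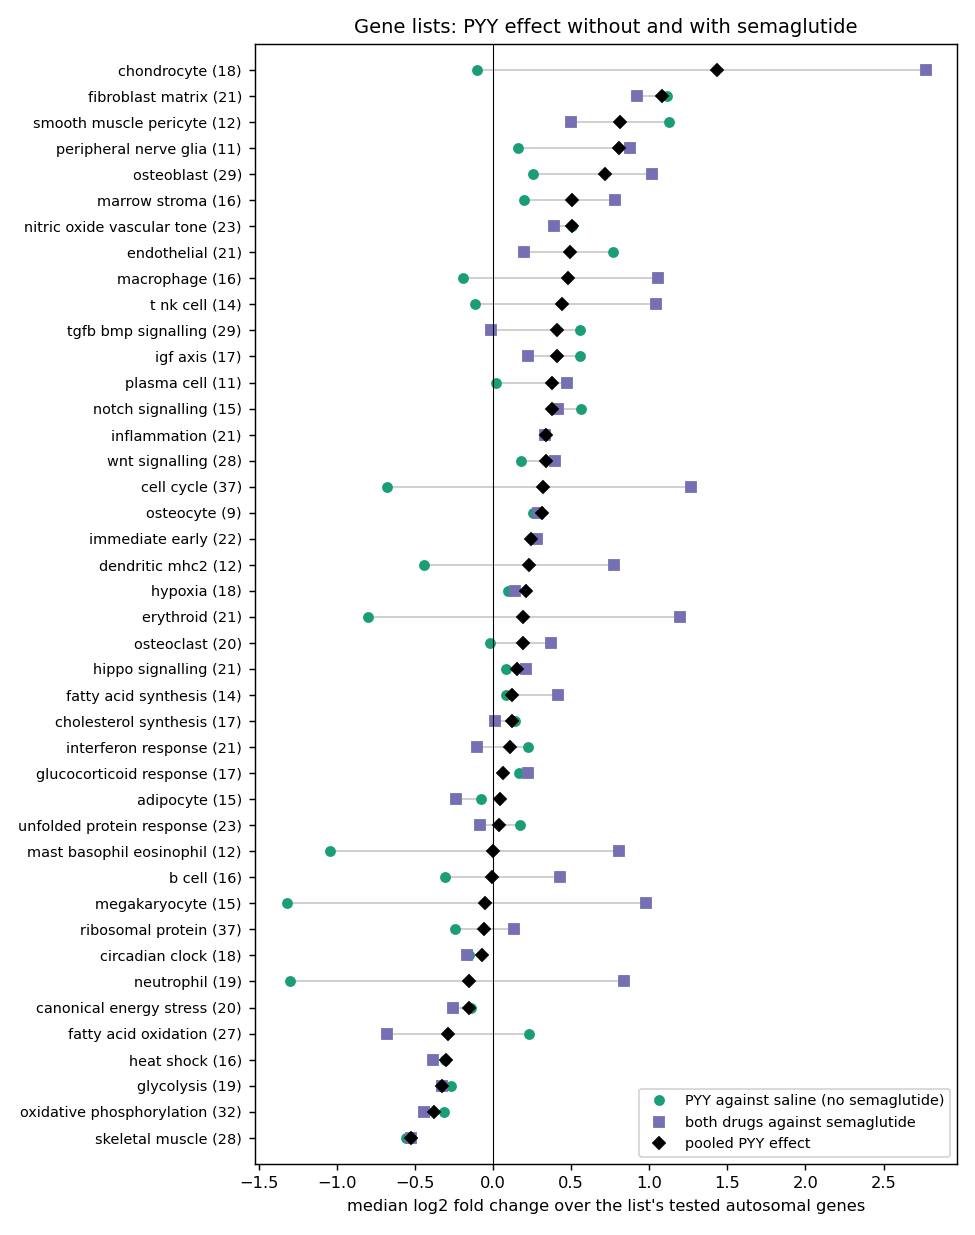
Median log2 fold change of each gene list (horizontal) with the number of tested autosomal genes in brackets, for PYY against saline (green circles), the combination (both drugs) against semaglutide (purple squares) and the pooled effect (black diamonds). Fibroblast, vessel wall and muscle lists lie on the same side of 0 in both parts, whereas cell cycle, erythroid, megakaryocyte and neutrophil lists lie on opposite sides.

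On the lower side, all 28 skeletal muscle genes were below 0 (median -0.53), with 0 at an unadjusted p under 0.05, including Xirp2 (-0.75 ± 0.43) and the calcium store protein Casq1 (-0.65 ± 0.47). Genes of oxidative phosphorylation were below 0 in 30 of 32 cases (median -0.38), with the complex III subunit Uqcrh at -0.47 ± 0.24 and cytochrome c, Cycs, at -0.81 ± 0.43. Genes of fatty acid oxidation were below 0 in 26 of 27 cases (median -0.29, with 0.23 in PYY against saline and -0.68 in the combination). Without PYY A216 and combination A320 these 3 medians were -0.19, -0.10 and -0.01. With muscle level as a covariate the last 2 were -0.05 and -0.0022, and the first cannot be read in that fit, since the covariate is the level of the same genes. Heat shock genes were lower in 15 of 16 (median -0.30), and their regulator Hsf1 (-0.40 ± 0.19) and the chaperone Hsph1 (-0.45 ± 0.20) had an unadjusted p under 0.05. The median of the list was -0.06 without PYY A216 and combination A320 and -0.16 once muscle level was a covariate, with 0 genes at that level in either fit. Malic enzyme Me1, which supplies NADPH for lipid synthesis, had -0.63 ± 0.27. Adipocyte genes were split, with 8 of 15 higher and a pooled median of 0.04, against -0.07 in PYY against saline and -0.24 in the combination against semaglutide. The regulator Pparg (0.55 ± 0.38) and the lipase Lipe (0.44 ± 0.27) were above 0, and the hormone Adipoq (-0.57) and the fatty acid binding protein Fabp4 (-0.29) below.

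Single genes on the lower side differed less in size than those on the higher side. Cop1, an E3 ubiquitin ligase (chromosome 13, 71429961 to 71538890), was at 16.6, 12.3, 20.1 and 21.99 CPM in PYY against 27.1, 27.7, 27.5, 31.1 and 17.98 in saline. It was at 20.6, 22.2, 9.12, 28.7 and 17.2 CPM in the combination against 36, 36.4, 32.9, 42.7 and 29.3 with semaglutide. The last 2 groups did not overlap, while saline A265 lay among the PYY libraries (log2 fold change -0.72 ± 0.18, edgeR adjusted p = 0.657). Mbd3, a subunit of the NuRD chromatin complex (chromosome 7, 9313098 to 9320165), was at 13.2, 12.2, 16.03 and 15.01 CPM in PYY against 16.6, 27.7, 14.5, 20.03 and 29.1 in saline, and at 16.3, 26.0, 15.8, 26.3 and 10.7 in the combination against 30.6, 30.2, 29.2, 29.5 and 37.9 with semaglutide. Again the groups with semaglutide did not overlap and those without did (-0.67 ± 0.17). The other 10 genes of smallest p had log2 fold changes between -0.66 and -0.42. They were Rassf3, Tatdn2, the histone reader Yeats4, Angpt1, the p38-activated kinase Mapkapk3, the mitochondrial import gene Tomm34, the nuclear receptor Nr2f6, the sialyltransferases St3gal2 and St3gal6 and the lipid phosphatase Mtmr4. All 12 were below 0 in all 35 other fits, which reuse the libraries by whose pooled p they were picked and are no independent check. The clock-controlled gene Ciart had a larger pooled value (-1.22 ± 0.49), which was -2.31 ± 0.65 in PYY against saline and -0.33 ± 0.57 in the combination.

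A single pooled value describes a gene poorly where the 2 parts differ. For the difference between them edgeR called 0 of 14507 genes (0%, smallest adjusted p = 0.279), with 606 at an unadjusted p under 0.05 (4.18%), and DESeq2 called 7. Of the 606, 365 had the higher value in the part with semaglutide (2.52%) and the rest the lower one (1.66%). The difference was above 0 for 51.7% of genes. The smallest p belonged to Cenpm, a centromere protein, with 0.0402, 0, 0, 0 and 0 CPM with semaglutide and 0.589, 0.311, 2.91, 2.703 and 1.75 in the combination, against 0.149, 0.537, 0.546 and 0.0814 in PYY and 0.343, 0.505, 7.90, 0.707 and 1.43 in saline. Semaglutide libraries were at or near 0. Fitted fold changes of Cenpm against them, and its pooled value, therefore depend on the prior count and are not given. The RNA helicase Znfx1 was 1.15 ± 0.28 and -0.58 ± 0.27, the transcriptional repressor Spen 0.92 ± 0.29 and -0.70 ± 0.27, and the zinc finger gene Zfp46 0.90 ± 0.27 and -0.49 ± 0.25. For Znfx1 the PYY libraries (5.94 to 9.83 CPM) lay above saline (2.68 to 4.13), and the combination (2.92 to 6.14) had 3 of 5 libraries below all semaglutide libraries (4.83 to 7.34). Pooled values of the 3 were 0.25, 0.08 and 0.17.

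Position and level of the genes gave a further description. The share of tested genes higher at an unadjusted p under 0.05 ran from 2.07% on chromosome 12 to 6.53% on chromosome 11, and the share lower from 0.531% on chromosome 18 to 2.27% on chromosome 12. Chromosome 12 was the only autosome with more genes lower (11) than higher (10) at that level. Of genes with a mean of at least 10 CPM 40.1% had a log2 fold change above 0, against 61.2% of those at 1 to 10 CPM and 59.7% of those under 1. Genes at 1 to 10 CPM had 308 higher and 54 lower at that level, and those above it 279 and 138. Protein-coding genes had 604 higher and 192 lower of 13525, and long noncoding RNAs 19 and 13 of 741.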

How the data were processed

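Polyadenylated RNA was sequenced per the labels' protocols, which do not say whether strand was kept, so overlapping and antisense genes are uncertain. The authors deposited raw counts per gene, used here, and FPKM values, used only to check the counts. The build mRatBN7.2 and DESeq2 1.42.0 are named per the submitters' processing notes. Aligner and counter: not given in the sources used here. Counts were fitted with edgeR 4.0.16 (R 4.3.3, TMM, filterByExpr, robust dispersion) with 1 term each for semaglutide and PYY and 16 residual degrees of freedom. Parts and their difference came from a fit of 4 group means. P-values were adjusted (Benjamini-Hochberg) over 15079 tested genes, of which 14507 were autosomal. Levels are CPM scaled by TMM factors, in order of column name, and list levels are mean log2 CPM with a prior count of 2. Values after genes are pooled log2 fold changes ± SE unless named otherwise. All 36 pairs of libraries within groups differed beyond sampling noise (chi-square per degree of freedom 50.1 or more). Named genes had a symbol and a mean of at least 1 CPM. They were the 12 with the smallest pooled p in each direction with both parts of that sign, up to 2 per list by pooled p, the genes of the neuropeptide Y system, a panel of 11 bone genes and the 4 with the smallest p for the difference, and not all are printed. Other list members are named with their values and were chosen after these were seen. The 44 lists held 918 entries, of 891 symbols 866 matched, and 809 autosomal genes were tested. Members and lists were chosen with earlier results of these data known. Alternatives were DESeq2, limma 3.58.1 voom without and with quality weights, other size factors and filters, other designs and covariates, and leaving out each library. Leaving out A248 and A318, these with A251 and A320, A229 with A253 and A265, and A216 with A320 was chosen after seeing the data. The fit was tested on simulated data.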

Additional observations from a re-analysis of the deposited data

Results flagged for a closer look

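Each value below is the gap from the farthest library to its nearest neighbour as a share of the whole range of its group of 4 or 5 libraries, on log2 CPM for genes and mean log2 CPM for lists. Chance alone takes about 0.05 of such groups past the limit of Dixon's test. The values came from named genes (84 in all), 44 lists and library totals, in 4 groups. Many gaps like those below are therefore due by chance, and none is a finding by itself.

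Among the PYY libraries, A220 was far below the others in the Notch list (0.97), in the Wnt inhibitor Nkd2 (0.951) and in the vessel collagen Col18a1 (0.855), and far above them in total counts (0.845). PYY A216 was far below in the circadian list (0.883) and the skeletal muscle list (0.876). In the combination, A320 was low in the adipocyte list (0.759) and the insulin-like growth factor list (0.781) and high in the T and NK cell list (0.786), and A251 was low in creatine kinase Ckb (0.798).

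In saline, A265 was low in Cop1 (0.746) and the B cell list (0.764), and high in Casq1 (0.814), Cycs (0.757), the glycolysis list (0.745) and the glucocorticoid response list (0.796). Saline A229 was high in Tomm34 (0.807) and low in Ogn (0.796), A226 was low in Mapkapk3 (0.78), and A224 was high in the list of dendritic cells (0.778). With semaglutide, A242 was high in Fkbp10 (0.782) and low in Uqcrh (0.775) and the skeletal muscle list (0.798). Semaglutide A243 was high in Mbd3 (0.822), A238 low in Klf6 (0.791), A240 low in Ciart (0.739) and A241 high in the osteoclast list (0.723). Cenpm was above 0 in A238 alone (1).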

How the results depend on the processing

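No paired analysis was possible because the groups compared share no replicate numbers. edgeR called 0 genes for the pooled effect in every edgeR alternative and with each library left out, while DESeq2 called 3 for it, 3 for PYY against saline, 10 for the combination against semaglutide and 7 for the difference. Leaving out 1 library at a time gave 0 to 2 calls for PYY against saline, with 2 (Fbn1 and Lama4) without PYY A220. The difference in total counts ran from -1.83 to 0.843 M.

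Counts at an unadjusted p under 0.05 moved more. From 631 higher and 209 lower they became 961 and 734 without PYY A220, and 897 and 561 without combination A251. The number lower was 83 without combination A253, 102 without PYY A216, 112 without semaglutide A238 and 138 without saline A265. With the muscle level as a covariate 310 were higher, with no low-count filter 1017 were higher, and 59.8% of genes at that level were higher with the muscle level as a covariate against 75.1% in the reported fit. That share was 46.9% in voom, 50.6% with quality weights and 49.2% with the mitochondrial share as a covariate. The cause was not tested.

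Single genes that changed sign were mostly bone genes of the panel, which was named whatever its p-values. Most other named genes were chosen for a small pooled p, so this contrast follows from the choice and describes no trait of bone genes. In voom Sp7 was -0.492, Tnfsf11 -0.417 and Tnfrsf11b -0.664. With quality weights Dmp1 was -0.113, Alpl -0.0254, Runx2 -0.0608, Sp7 -0.436, Sost -0.135 and Tnfrsf11b -0.232. With no semaglutide factor Dmp1 was -0.045 and Acp5 -0.106. Cenpm was -0.0209 there, against a positive value in the reported fit. With the muscle level as a covariate Dpp4 was -0.472, Dmp1 -0.0667, Alpl -0.0817, Runx2 -0.136, Sp7 -0.365, Sost -0.478 and Tnfsf11 -0.526. Without A248, A251, A318 and A320 Dpp4 was -0.0354 and Dmp1 -0.0977. Without A229, A253 and A265 Npy was 0.101, Spen -0.109, Sost -0.168 and Tnfsf11 -0.397. Without A216 and A320 Dpp4 was -0.374, Sp7 -0.17, Sost -0.134 and Tnfsf11 -0.0636. With 1 library left out, Dpp4 ran from -0.106 to 0.761, Spen from -0.0314 to 0.197, Sp7 from -0.0259 to 0.652, Sost from -0.108 to 0.458 and Tnfsf11 from -0.0326 to 0.737. The median biological coefficient of variation between libraries was 52.2%.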
